A study of Mus musculus with 59 samples.

Results

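The genes described here encode 31 subunits of the sodium, calcium, hyperpolarization-activated and sodium leak channels of neurons, measured by RNA-seq in the prefrontal cortex of young mice. The members were chosen by name, from a list of channel genes, but with earlier results of these data known. All 31 were among the 18088 genes listed in the deposited table, and all 31 passed the filter on low values that left 16599 genes for testing. They comprise 4 sodium channel alpha subunits, 3 sodium channel beta subunits, 3 fibroblast growth factor homologous factors that bind sodium channels, 5 high-voltage-activated and 3 T-type calcium channel alpha1 subunits, 4 calcium channel beta subunits, 3 alpha2delta subunits, 3 HCN channel subunits, and 3 members of the sodium leak channel complex.

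The C57BL/6J mice either carried 1 copy of a Shank3 knock-in allele (heterozygous, HT) or none (wild type, WT). The Shank3 protein is a scaffold of the postsynaptic density. Pups took in lithium, a mood stabilizer, fluoxetine, a serotonin reuptake inhibitor, or vehicle with their dam's milk for 3 weeks (postnatal days 3 to 24), and were analysed on postnatal day 25. The 6 arms were HT lithium (10 mice), HT fluoxetine (10), WT lithium (9), WT fluoxetine (10), HT vehicle (10) and WT vehicle (10), with females and males in each. The knock-in allele is not described further here, and the labels give neither drug doses nor litters, so the p-values count pups as independent although the drugs came through the dam.

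Each library held 22984556 to 35969254 reads. Shank3 itself had 5170 to 11196 normalized reads over the 59 libraries, and because a count per gene does not show which allele it came from, it does not check the genotype labels. Markers of excitatory cortical neurons were detected in every library. Markers of the olfactory bulb, a structure that adjoins the prefrontal cortex, varied throughout the libraries: an index of 8 bulb markers, in which 1 is the mean library, ran from 0.131 to 4.10. Its median was 0.269 in HT lithium, 0.479 in HT fluoxetine, 0.741 in WT lithium, 0.546 in WT fluoxetine, 0.710 in HT vehicle and 1.17 in WT vehicle libraries. The 5 libraries that stood apart, by an index over 2.5 or by less than 5% mitochondrial reads, were HT lithium females 4 and 5, HT vehicle male 4, and WT fluoxetine females 1 and 4. An index of 5 choroid plexus and ependyma markers was 25.5 in HT vehicle female 1 and 0.415 to 0.813 in all other libraries; without HT vehicle female 1 the same 14 members passed in the comparison of HT lithium with HT vehicle. The 5 libraries apart stayed in all values, and results without them are given where a call depended on them.

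Voltage-gated sodium channels open on depolarization and produce the upstroke of the action potential. Voltage-gated calcium channels admit calcium at nerve terminals and dendrites; their T-type branch opens near the resting potential and shapes burst firing. HCN channels carry a depolarizing current that opens on hyperpolarization. Nalcn, a channel that is not gated in the usual voltage-dependent way, carries a resting sodium leak and works in a complex with the large proteins Unc79 and Unc80.

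Changes below are log2 fold changes of the normalized read count plus 1, given with the SE of limma, and averaged over the sexes unless a sex is named. A gene passed where its Benjamini-Hochberg adjusted p from limma, taken over all 16599 genes within the comparison, was under 0.05. Genes are said to have risen or fallen only where they passed. With bulk tissue, fewer cells of a type and less RNA per cell cannot be told apart.

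The genes on which the results turn most were Cacna1i, Unc79 and Unc80. Cacna1i (ENSMUSG00000022416) encodes a pore-forming T-type subunit and lies on the plus strand at chr15:80287238-80398279. Unc79 (ENSMUSG00000021198) lies on the plus strand at chr12:102948859-103184065, and Unc80 (ENSMUSG00000055567) on the plus strand at chr1:66468367-66699148, all in GRCm38. The 250 bases before the RefSeq start of each gene are shown because these genes rose in HT lithium, WT lithium and WT fluoxetine, and because each held its lithium call under every processing setting tried in one genotype, HT for Cacna1i and WT for Unc79 and Unc80. They come from RefSeq on GRCm38.p6, plus strand, at chr15:80286988-80287237, chr12:102948609-102948858 and chr1:66467684-66467933. Capitals mark E-boxes, searched as CANNTG, which reads the same on both strands.
Cacna1i: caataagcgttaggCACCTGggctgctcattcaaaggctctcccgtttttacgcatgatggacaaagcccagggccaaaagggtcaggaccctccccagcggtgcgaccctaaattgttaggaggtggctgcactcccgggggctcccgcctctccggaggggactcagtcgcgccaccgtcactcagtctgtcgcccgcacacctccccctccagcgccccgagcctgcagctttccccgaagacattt
Unc79: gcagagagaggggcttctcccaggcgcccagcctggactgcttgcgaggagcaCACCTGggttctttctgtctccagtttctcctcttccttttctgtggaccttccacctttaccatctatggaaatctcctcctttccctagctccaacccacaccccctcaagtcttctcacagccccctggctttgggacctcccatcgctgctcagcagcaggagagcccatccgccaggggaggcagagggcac
Unc80: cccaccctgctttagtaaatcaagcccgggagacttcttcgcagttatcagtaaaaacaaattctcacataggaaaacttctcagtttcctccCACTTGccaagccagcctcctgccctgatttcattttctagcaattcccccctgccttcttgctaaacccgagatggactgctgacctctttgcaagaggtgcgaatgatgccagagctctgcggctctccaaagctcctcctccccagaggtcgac
Each of the 3 windows held 1 E-box, in 2 of them with the letters CACCTG. An E-box was present in 66.2% of all 32851 RefSeq windows of the same length, and in 58.5% of the 41 windows that matched 25 of the 31 members. None of the 3 windows held a GC box, searched as GGGCGG or CCGCCC, which 32.7% of all windows and 43.9% of the members' windows held. These are matches of letters and not sites at which a factor was measured.

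The members are long and well expressed genes. Their merged exons had a median length of 9862 bases, against 4209 bases for all tested genes, and 26 of 31 were above that median. Their mean normalized count had a median of 3924 reads, against 518.7 reads for all tested genes. Levels between genes are therefore compared as normalized reads per kilobase of merged exons, here in the 10 WT vehicle libraries (mean ± SD).

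Cacnb3, a cytoplasmic beta subunit that traffics calcium channel pores to the membrane, had the highest level at 2072 ± 219 reads per kilobase, ahead of the sodium channel beta subunit gene Scn2b at 1574 ± 166. Per kilobase of the longest coding transcript Fgf13 (1617) was slightly above Scn2b (1574). Among the pores of the sodium channels, Scn2a (848 ± 87.7) and Scn8a (677 ± 69.5), the main isoforms of excitatory neurons, were above Scn1a (365 ± 39.4), the isoform on which fast-spiking interneurons depend, and Scn3a (141 ± 10.5), an isoform known for its early expression. Scn3a, Scn2a and Scn1a lie in that order on chromosome 2, between positions 65457118 and 66440840. Of the high-voltage-activated calcium channel pores, Cacna1a (548 ± 57.5, P/Q-type) and Cacna1b (465 ± 44.8, N-type) exceeded Cacna1e (307 ± 28.9, R-type), though per kilobase of the longest coding transcript Cacna1e (519.7) was above Cacna1b (474.5). The L-type genes Cacna1d (184 ± 16.5) and Cacna1c (158 ± 15.5) were lowest. The T-type genes Cacna1i (412 ± 40.9) and Cacna1g (380 ± 35.4) did not differ beyond their spread (415.0 and 459.7 per kilobase of the longest coding transcript), and Cacna1h (207 ± 30.1) was below both. Within the leak complex Unc80 was at 608 ± 39.0, Nalcn at 236 ± 12.3 and Unc79 at 149 ± 9.90 reads per kilobase. Hcn2 (929 ± 136) exceeded Hcn3 (154 ± 12.5) and Hcn4 (67.0 ± 13.7), the lowest of the 31.

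**Figure D1:**
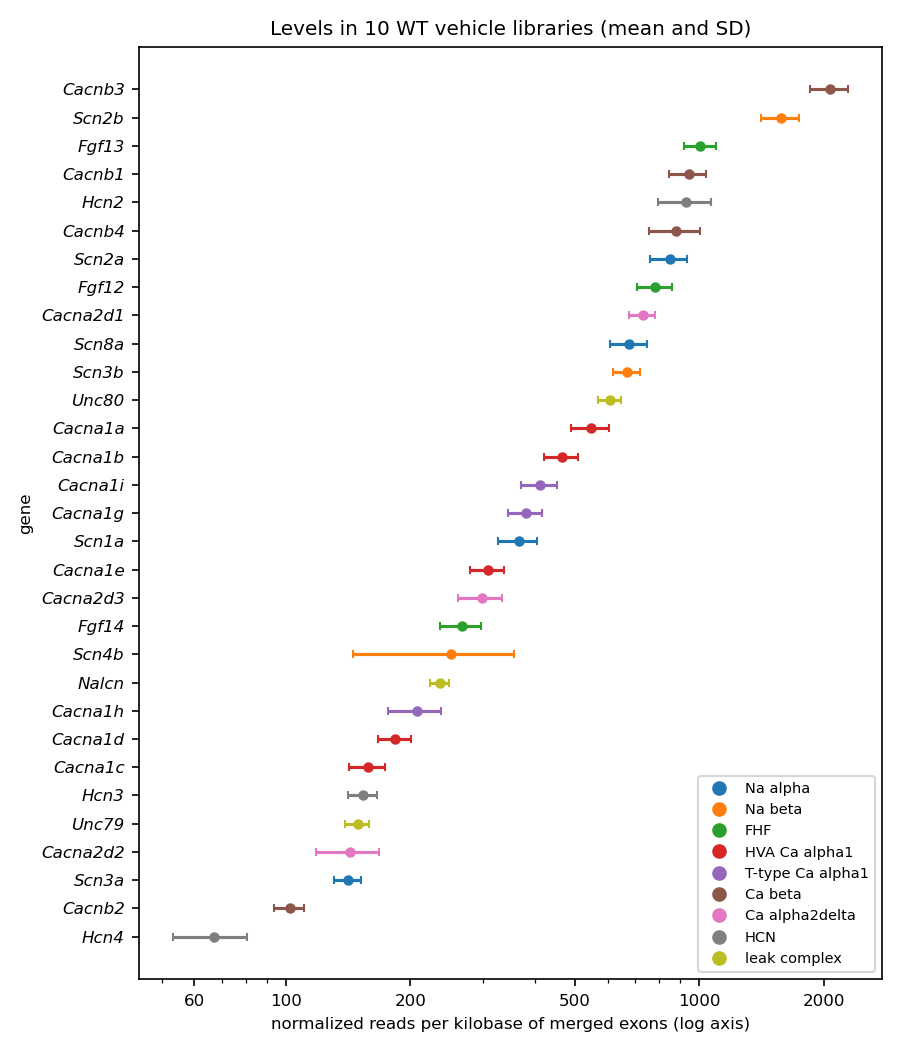
Level of each of the 31 channel genes in the 10 WT vehicle libraries, as normalized reads per kilobase of merged exons on a log axis; points are means, bars are SD and colours are roles. Levels ran from 67.0 for Hcn4 to 2072 for Cacnb3, and Scn4b had the widest bar on this log axis.

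Lithium in HT mice was compared with vehicle in HT mice to ask which channel genes the drug altered in carriers of the knock-in allele. Of the 31 members, 11 rose, 3 fell and 17 did not pass, which is 45.2% called against 20.3% of all tested genes (10.9% higher and 9.43% lower). Among the 9124 genes with a mean count of at least 400 reads, 28.2% were called. The median change of the members was 0.10, against -0.00 for all genes. Calcium channel genes made up 8 of the 11 that rose, no sodium channel pore or beta subunit passed, and edgeR and DESeq2 on the recovered reads called the same 14 members.

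All 3 T-type genes rose in HT lithium mice. Cacna1i had a lowest, median and highest value of 4353, 4869 and 5279 normalized reads in HT lithium, against 3302, 3798 and 4351 in HT vehicle. Every HT lithium library was thus above every HT vehicle library, by a narrow margin at the edge, and the change was 0.34 ± 0.05 (adjusted p = 4.04e-06, limma). Cacna1g, a T-type pore known for burst firing in thalamic relay neurons, had 4019, 4449 and 4924 reads in HT lithium against 3356, 3799 and 4278 in HT vehicle. The groups overlapped, with 8 of 10 HT lithium libraries above the whole vehicle group, and Cacna1g rose by 0.23 ± 0.05 (adjusted p = 0.00187, limma). Cacna1h, the remaining T-type pore, ran from 1865 to 2867 reads in HT lithium and from 1481 to 2469 in HT vehicle, a rise of 0.23 ± 0.08 (adjusted p = 0.0243, limma) with 2 of 10 libraries above all vehicle libraries. Its change was 0.47 in females and 0.00 in males, a difference that did not pass (0.46 ± 0.15, adjusted p = 0.159, limma). The change of the bulb markers also differed by sex here without passing (median 3.26, females minus males). The part of bulb content in the Cacna1h values was not tested. The Cacna1h call was lost without HT lithium female 4, without HT vehicle female 3, or without the 5 libraries apart.

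Of the 5 high-voltage-activated pores, the presynaptic P/Q-type gene Cacna1a and N-type gene Cacna1b rose, and the L-type genes Cacna1c and Cacna1d and the R-type gene Cacna1e did not pass. Cacna1a had 7074, 7766 and 8886 reads in HT lithium against 4695, 6085 and 6874 in HT vehicle, again without overlap, and a change of 0.39 ± 0.08 (adjusted p = 0.000184, limma). Cacna1b had 4246, 5632 and 6036 reads in HT lithium against 3353, 4641 and 5518 in HT vehicle. The lowest HT lithium library was below the vehicle median, 7 of 10 were above all vehicle libraries, and the change was 0.28 ± 0.07 (adjusted p = 0.00477, limma).

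Among the subunits that accompany these pores, Cacnb3, Cacnb1 and Cacna2d2 rose in HT lithium mice. Cacnb3 had 8111, 9296 and 10400 reads in HT lithium against 7125, 7979 and 8829 in HT vehicle, with 7 of 10 libraries above the vehicle group and a change of 0.25 ± 0.06 (adjusted p = 0.00207, limma). Cacnb1, a beta subunit shared with skeletal muscle, had 4135, 5207 and 6053 reads against 3321, 4199 and 4848, with 7 of 10 above and a change of 0.30 ± 0.09 (adjusted p = 0.01, limma). Cacna2d2, an extracellular subunit that raises calcium channel surface density, had 1152, 1368 and 1592 reads against 822, 1056 and 1365, where 5 of 10 were above the vehicle group, and rose by 0.35 ± 0.10 (adjusted p = 0.00628, limma). Cacnb2 (-0.02), Cacnb4 (-0.09), Cacna2d1 (-0.08) and Cacna2d3 (0.13) did not pass.

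The leak complex split in HT lithium mice. Nalcn, the pore, had 2813, 3011 and 3592 reads in HT lithium against 3193, 3488 and 4344 in HT vehicle. The groups overlapped, 7 of 10 HT lithium libraries lay below every vehicle library, and Nalcn fell, with a change of -0.22 ± 0.05 (adjusted p = 0.00199, limma). Its partners moved the other way: Unc79 had 2345, 2467 and 2552 reads in HT lithium against 1944, 2227 and 2468 in HT vehicle, a rise of 0.15 ± 0.04 (adjusted p = 0.00654, limma). Unc80 had 9511, 9867 and 10150 reads in HT lithium against 7671, 8755 and 10336 in HT vehicle, a rise of 0.16 ± 0.05 (adjusted p = 0.00878, limma). For Unc80 no HT lithium library exceeded the highest vehicle library, but 8 of 10 vehicle libraries lay below the lowest HT lithium library, and its coefficient of variation was 2.3% in HT lithium against 9.0% in HT vehicle.

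Fibroblast growth factor homologous factors are intracellular proteins that bind the sodium channel tail and set its inactivation. Fgf12 had 3150, 4072 and 4901 reads in HT lithium against 4424, 4565 and 5619 in HT vehicle. In 8 of 10 HT lithium libraries it was below every vehicle library, and it fell, with a change of -0.26 ± 0.06 (adjusted p = 0.00218, limma). Fgf14 ran from 764 to 1156 reads in HT lithium and from 990 to 1363 in HT vehicle, a change of -0.23 ± 0.08 (adjusted p = 0.04, limma), and its call was lost when any of 10 single libraries, or the 5 libraries apart, were left out. Fgf13 did not pass (-0.03 ± 0.08). Of the HCN genes only Hcn2 passed: it had 2415, 3194 and 3531 reads in HT lithium against 1953, 2453 and 2954 in HT vehicle, 7 of 10 above the vehicle group, and a rise of 0.28 ± 0.09 (adjusted p = 0.0138, limma) that was lost without the 5 libraries apart. The sodium channel pores had changes from -0.08 for Scn3a to 0.21 for Scn8a and the beta subunits from -0.11 for Scn3b to 0.37 for Scn4b, none of which passed. With each sex contrasted within the fit of all libraries, Cacna1a and Cacna1i passed in females and in males. Cacna1g, Cacna1h, Unc79 and Unc80 passed in females only. Cacna1b, Cacnb1, Cacnb3, Hcn2, Nalcn and Fgf12 passed in males only, and Cacna2d2 and Fgf14 in neither. No difference between the sexes passed.

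Fold changes in HT lithium mice rose with the GC content of the transcript across all genes (Spearman rho 0.47 over 16588 genes, which are not independent replicates). The rho was 0.30 in HT fluoxetine and -0.42 in HT vehicle against WT vehicle, which share the HT vehicle libraries. It was 0.007 in WT lithium and 0.15 in WT fluoxetine. With the GC trend removed within each library, 7 members passed in HT lithium, 6 higher and 1 lower, against 11.5% of all genes. These were Cacna1i (0.21, adjusted p = 0.00142, limma), Cacna1a (0.28), Cacna1b (0.23), Cacna2d2 (0.27), Unc79 (0.14), Unc80 (0.18) and Fgf12 (-0.18); Cacna1g, Cacna1h, Cacnb1, Cacnb3, Hcn2, Nalcn and Fgf14 lost their calls.

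**Figure D2:**
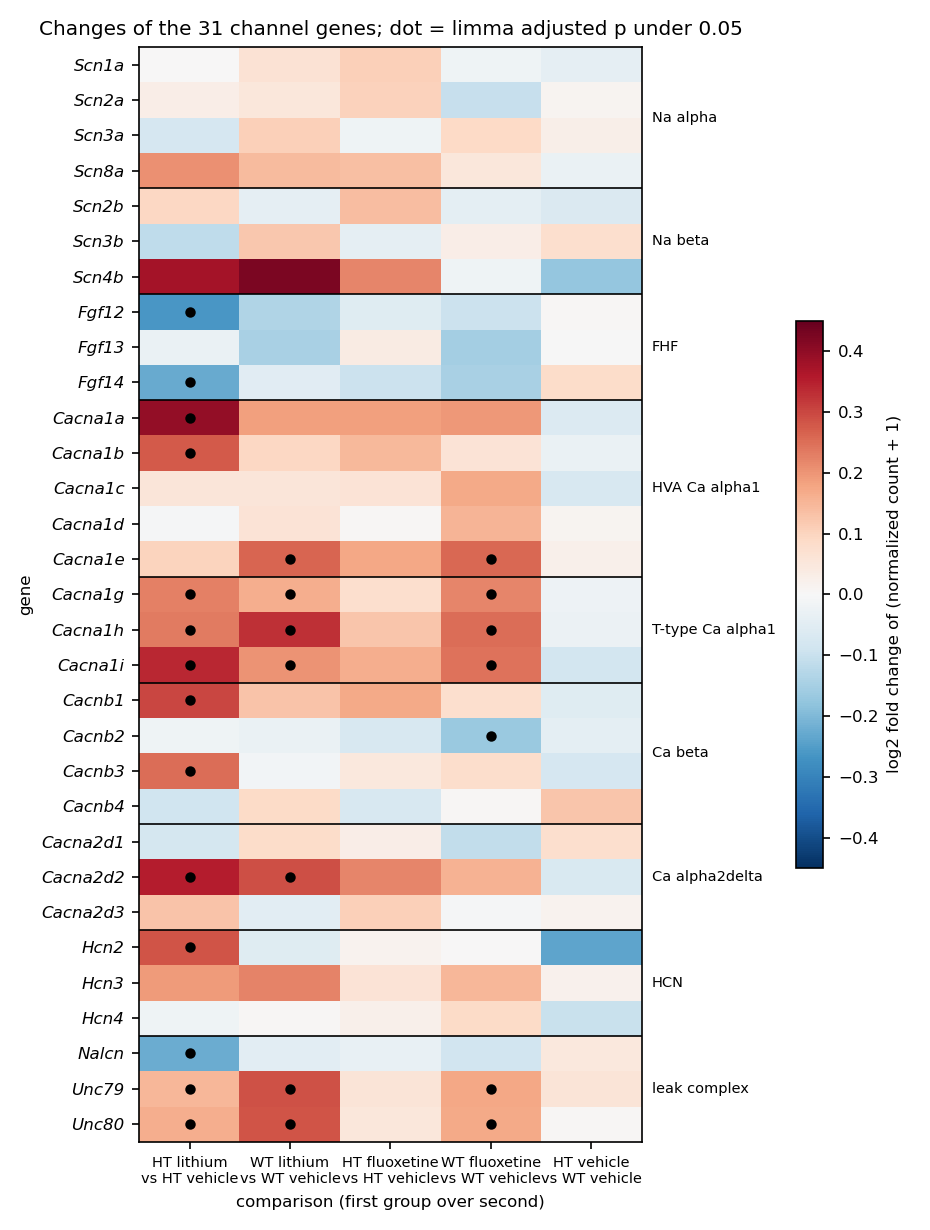
Log2 fold change (colour) of each of the 31 channel genes in 4 drug comparisons and in HT vehicle against WT vehicle, with genes grouped by role; dots mark a limma adjusted p under 0.05. The T-type genes and Unc79 and Unc80 carry dots in HT lithium, WT lithium and WT fluoxetine, and no gene carries one in HT fluoxetine or HT vehicle.

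In WT mice lithium was compared with vehicle by the same test. Of the 31 members 7 rose, 0 fell and 24 did not pass, which is 22.6% called against 12.8% of all genes, or 17.3% of those with a mean count of at least 400 reads. Among all genes 7.66% were higher and 5.11% lower. The members' median change was 0.09, against -0.00 for all genes. The 7 were the 3 T-type genes, Cacna1e, Cacna2d2, Unc79 and Unc80; edgeR and DESeq2 called these and Hcn3.

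Unc79 had 2283, 2632 and 2757 reads in WT lithium against 1812, 2116 and 2314 in WT vehicle. All but 1 of the 9 WT lithium libraries were above the whole vehicle group, and the rise was 0.29 ± 0.04 (adjusted p = 6.31e-06, limma). Unc80 had 9785, 10724 and 11720 reads in WT lithium against 7976, 8710 and 9851 in WT vehicle, with 8 of 9 above the vehicle group and a rise of 0.28 ± 0.05 (adjusted p = 5.55e-05, limma). Nalcn had a change of -0.05 ± 0.05 and did not pass.

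Cacna1h had 2158, 2480 and 3033 reads in WT lithium against 1515, 2028 and 2465 in WT vehicle, and 5 of 9 libraries exceeded the vehicle group (0.33 ± 0.08, adjusted p = 0.00362, limma). Cacna1i had 4115, 4576 and 5257 reads against 3347, 4165 and 4704, with 4 of 9 above (0.20 ± 0.05, adjusted p = 0.00525, limma). Cacna1g had 3639, 4230 and 4971 reads against 3348, 3914 and 4595, with 3 of 9 above (0.16 ± 0.06, adjusted p = 0.0411, limma). All 3 T-type genes thus rose in WT lithium with overlapping groups. Cacna1e, which encodes the R-type pore, had 8047, 8963 and 11001 reads in WT lithium against 6783, 7514 and 9088 in WT vehicle (0.26 ± 0.06, adjusted p = 0.00165, limma). Cacna2d2 had 1141, 1397 and 1687 reads in WT lithium against 857, 1116 and 1436 in WT vehicle (0.29 ± 0.10, adjusted p = 0.0411, limma). For both, every WT lithium library was above the vehicle median and 4 of 9 were above the whole vehicle group. The calls of Cacna1g and Cacna2d2 were each lost when any of 11 single libraries was left out. With each sex contrasted within the fit of all libraries, Unc79 and Unc80 passed in females and in males. The T-type genes, Cacna1e and Cacna2d2 passed in females only. In males Cacna1g was at 0.06 and Cacna1i at 0.09, against 0.26 for Cacna1h. No difference between the sexes passed.

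Here fold changes rose with the length of the longest transcript across all genes (Spearman rho 0.34 over 16588 genes), and the members are long by their merged exons. With the length trend removed, only Unc79 (0.18, adjusted p = 0.00141, limma) and Unc80 (0.12, adjusted p = 0.0429, limma) of the 31 still passed, against 7.1% of all genes. In HT lithium mice the same correction left 11 members, among them Cacna1i (0.28), Cacna1g (0.18), Nalcn (-0.26) and Unc79 (0.10), and it ended the calls of Unc80, Cacna1h and Fgf14. The share of all genes beside these 11 is not given here, so the count is not a result about the members.

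The lithium comparisons in HT and WT mice share no libraries. Of the 14 members called in HT and the 7 called in WT mice, 6 were called in both, all higher: the 3 T-type genes, Cacna2d2, Unc79 and Unc80. That is 42.9% of the HT calls and 85.7% of the WT calls, against 31.4% and 50% over all genes. Signs were alike for 67.7% of the members and 67.9% of all genes. The interaction of genotype with lithium called 0 members by limma, edgeR and DESeq2, against 0.00602% of all genes by limma. At an unadjusted p under 0.05 there were 5 members (16.1%), against 12.2% of all genes. The 5 were Cacnb3 (0.26 ± 0.09, adjusted p = 0.238, limma), Hcn2 (0.34), Scn3b (-0.23), Nalcn (-0.18) and Unc79 (-0.14). The different calls for Nalcn, Hcn2 and Cacnb3 in HT and WT mice are therefore not shown to be a difference between the genotypes.

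**Figure D3:**
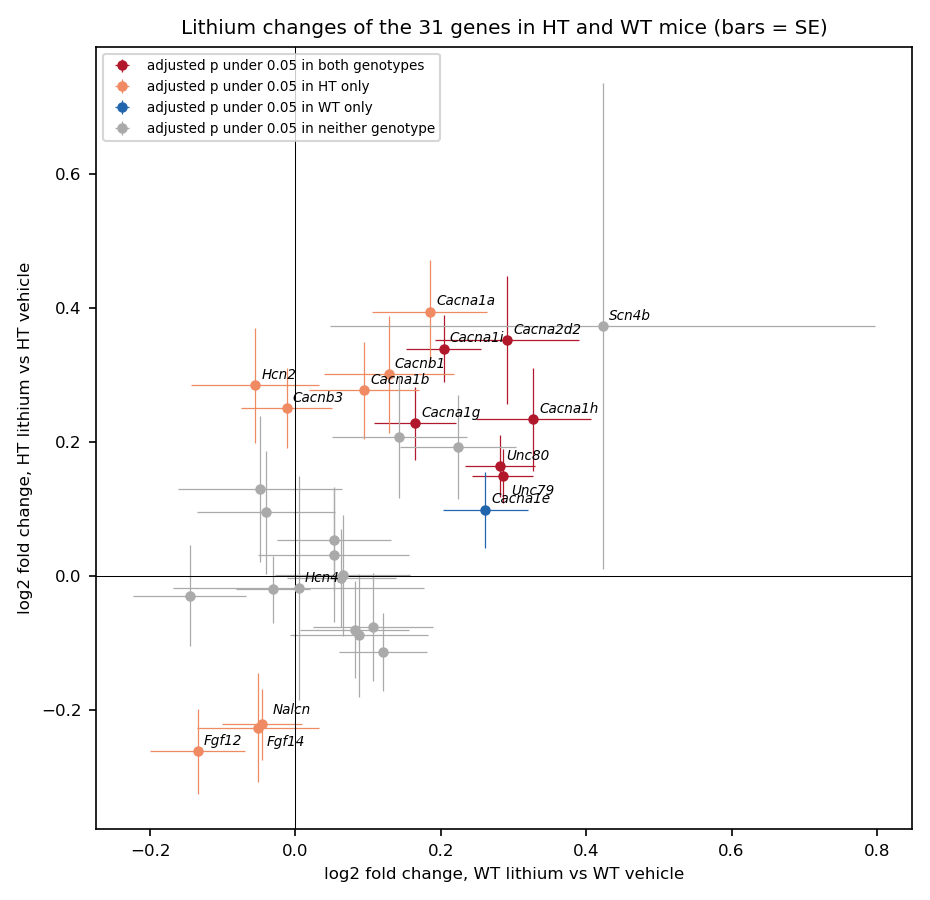
Log2 fold change with lithium in HT mice (vertical axis) against that in WT mice (horizontal axis) for the 31 channel genes; points are genes, bars are SE, and colours show in which genotype the limma adjusted p was under 0.05. The 6 genes called in both lie at positive values on both axes, and Nalcn, Fgf12 and Fgf14 lie below -0.2 on the vertical axis.

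Fluoxetine in WT mice gave 6 members higher, 1 lower and 24 not passed against WT vehicle, which is 22.6% called against 5.66% of all genes, or 7.74% of those with a mean count of at least 400 reads. Among all genes 3.54% were higher and 2.11% lower. The median change was 0.06, against -0.01 for all genes. This comparison uses the same WT vehicle libraries as the lithium comparison in WT mice, so a low vehicle library raises a gene in both. The 6 that rose were the 3 T-type genes, Cacna1e, Unc79 and Unc80, and the 1 that fell was Cacnb2.

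Cacna1i had 4164, 4810 and 5478 reads in WT fluoxetine against 3347, 4165 and 4704 in WT vehicle, with 6 of 10 above the vehicle group (0.24 ± 0.05, adjusted p = 0.00203, limma). Cacna1e had 7913, 9396 and 10996 reads against 6783, 7514 and 9088, again with 6 of 10 above (0.26 ± 0.06, adjusted p = 0.0036, limma). Unc79 had 2227, 2381 and 2581 reads against 1812, 2116 and 2314, with 8 of 10 above (0.17 ± 0.04, adjusted p = 0.0064, limma). These 3 genes, and also Cacna1g, Unc80 and Cacna1h, were above the vehicle median in at least 9 of 10 WT fluoxetine libraries. Cacna1g had 3934, 4242 and 5784 reads in WT fluoxetine against 3348, 3914 and 4595 in WT vehicle, 3 of 10 above (0.22 ± 0.05, adjusted p = 0.00994, limma). Unc80 had 8029, 9694 and 11758 reads against 7976, 8710 and 9851, 4 of 10 above (0.17 ± 0.05, adjusted p = 0.0207, limma). Overlap was thus wider for both. Cacna1h had 1962, 2199 and 3383 reads in WT fluoxetine against 1515, 2028 and 2465 in WT vehicle (0.25 ± 0.08, adjusted p = 0.041, limma). Cacnb2, a beta subunit known as a partner of cardiac L-type channels, had 1012, 1211 and 1304 reads in WT fluoxetine against 1208, 1362 and 1501 in WT vehicle, 4 of 10 below the vehicle group (-0.17 ± 0.05, adjusted p = 0.0362, limma). For Cacnb2 all WT fluoxetine libraries lay below the vehicle median. Without WT fluoxetine female 2, or without WT vehicle female 3, 4 members passed, and without the 5 libraries apart Cacna1h and Cacnb2 lost their calls. With the length trend removed 0 members passed against 3.18% of all genes, while with the GC trend removed 6 rose (share of all genes not given here).

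In WT mice the change with fluoxetine was larger in females than in males for the T-type genes Cacna1h and Cacna1i. The interaction of sex with fluoxetine in WT mice called 3 members, 2 higher and 1 lower in females relative to males, which is 9.68% against 8.66% of all genes (3.58% higher, 5.08% lower) and so near the background. Cacna1h averaged 2671 ± 557 reads in fluoxetine females and 1854 ± 222 in vehicle females, and 2163 ± 162 in fluoxetine males and 2186 ± 275 in vehicle males (SD, n = 5 each). The difference between the sexes was 0.52 ± 0.15 (adjusted p = 0.0285, limma). Cacna1i averaged 5057 ± 304 reads in fluoxetine females and 3766 ± 319 in vehicle females, and 4547 ± 393 in fluoxetine males and 4352 ± 224 in vehicle males, a difference of 0.37 ± 0.10 (adjusted p = 0.0181, limma). Cacna2d1, the alpha2delta subunit that binds gabapentin, averaged 7414 ± 1536 reads in fluoxetine females and 9230 ± 514 in vehicle females, and 9650 ± 1384 in fluoxetine males and 8860 ± 803 in vehicle males (-0.45 ± 0.15, adjusted p = 0.0415, limma). Cacna1g pointed the same way as its T-type relatives without passing (0.29 ± 0.11, adjusted p = 0.0725, limma). The WT fluoxetine females include the libraries with the highest bulb indexes, 3.62 and 4.10. With the GC trend removed, or with only the groups compared in the model, 0 members passed, and without WT fluoxetine female 2 also 0. With 1 library left out the count ran from 0 to 12, and 11 of the 20 libraries moved it by over 1.5 times. With the bulb index as a covariate 9 members passed (share of all genes not given here), and the part of bulb content in these values was not tested.

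**Figure D4:**
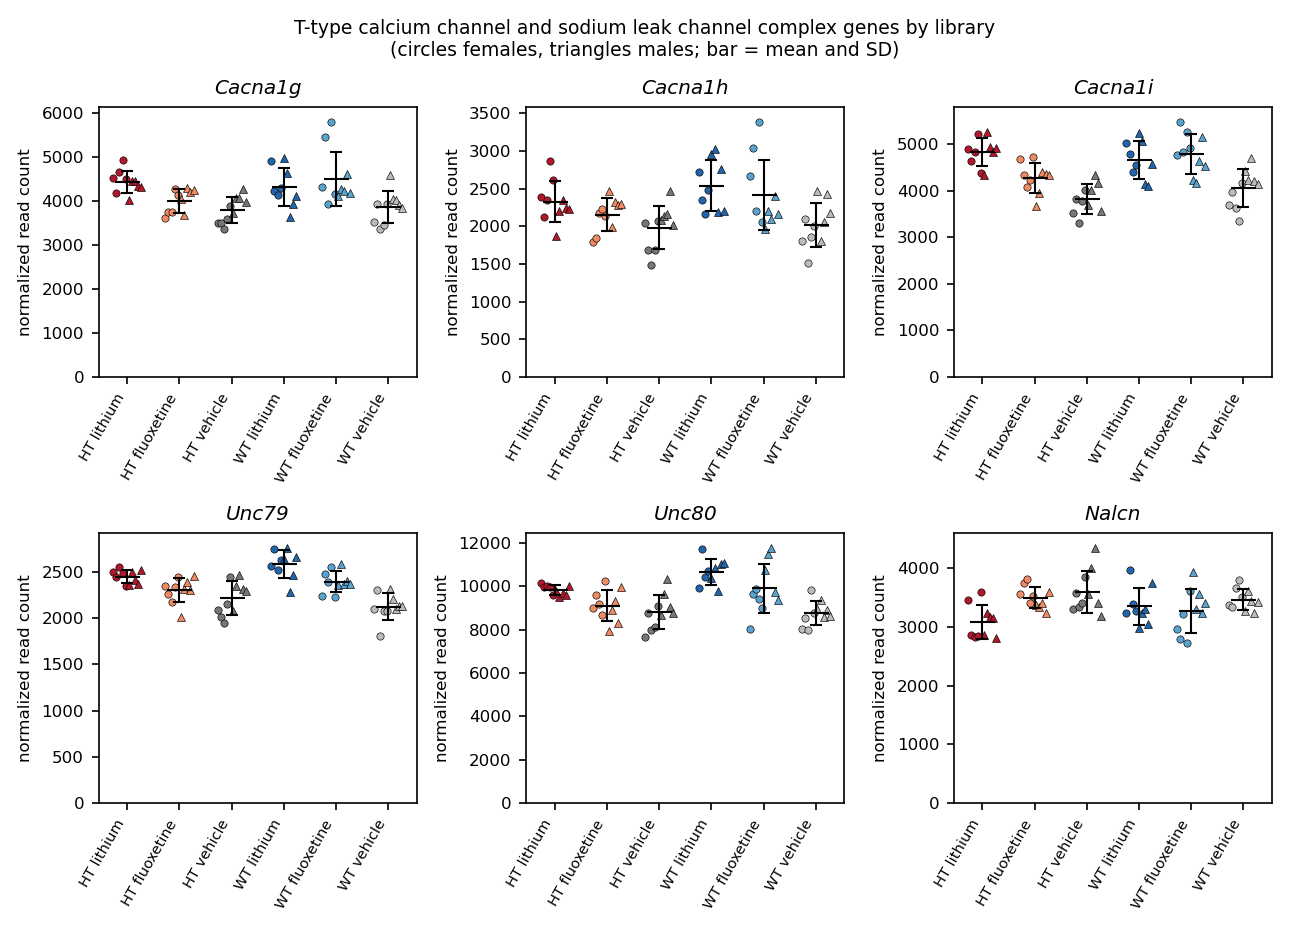
Normalized read counts of Cacna1g, Cacna1h, Cacna1i, Unc79, Unc80 and Nalcn in all 59 libraries, by arm, with axes from 0; circles are females, triangles are males, and bars give the mean and SD. Cacna1i does not overlap between HT lithium and HT vehicle, and the highest Cacna1h value, 3383 reads, is a WT fluoxetine female.

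Fluoxetine in HT mice called 0 members by limma, edgeR and DESeq2, against 0.277% of all genes (0.205% higher, 0.0723% lower), and 5 members (16.1%, against 11.6% of all genes) had an unadjusted p under 0.05. The smallest adjusted p was 0.128, for Cacna1i (0.16 ± 0.05, with a 95% interval of 0.06 to 0.26). Cacna1e followed at 0.17 ± 0.06 (adjusted p = 0.162, limma). All 3 T-type genes had positive changes, from 0.08 to 0.16. The interaction of genotype with fluoxetine called 0 members by limma, edgeR and DESeq2 (0 at an unadjusted p under 0.05, smallest adjusted p = 0.947, limma), so the calls in WT and their lack in HT mice are not shown to differ.

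HT and WT mice were compared under each drug to ask whether the knock-in allele itself altered these genes. No member passed by limma, edgeR or DESeq2 under vehicle, fluoxetine or lithium, where 0 of all 16599 genes passed by limma. Members with an unadjusted p under 0.05 numbered 1, 8 and 6 in that order, which is 3.23%, 25.8% and 19.4%, against 6.47%, 11.3% and 11.1% of all genes. Under vehicle the 1 was Hcn2, with 1953, 2453 and 2954 reads in HT vehicle against 2282, 3038 and 3892 in WT vehicle, and a change of -0.24 ± 0.09 (adjusted p = 0.673, limma; 95% interval -0.41 to -0.07). The change was -0.06 in females and -0.42 in males, a difference that did not pass (0.36 ± 0.17, adjusted p = 0.483, limma). For the T-type genes Cacna1i, Cacna1g and Cacna1h the values in HT vehicle overlapped widely with those in WT vehicle, with medians of 3798, 3799 and 2055 reads in HT vehicle and 4165, 3914 and 2028 in WT vehicle.

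Females averaged over the 6 arms had lower values than males for 26 of 31 members, by a median of only 0.03 on the log2 scale, and 0 passed by limma, edgeR and DESeq2 (2 members, or 6.45%, at an unadjusted p under 0.05, against 10.3% of all genes). Over all genes 0.217% passed, 0.0904% higher and 0.127% lower. The interaction of sex with lithium in HT mice called 0 members by limma, edgeR and DESeq2 against 0.012% of all genes by limma, every one of them lower; 6 members (19.4%) and 17.1% of all genes had an unadjusted p under 0.05.

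Much of the spread of these genes within a group ran along with the bulb index. Each library's deviation from its group mean on the log2 scale was related to that of the index over 59 libraries, in a family of 37 relations with permutation within groups (100000 resamples, two-sided). For 26 of 31 members the relation passed after Benjamini-Hochberg adjustment, 16 inverse and 10 direct. The weakest of the 26 had an absolute r of 0.35, and 53.1% of all tested genes, or 60.9% of those with a mean count of at least 400 reads, had one as large. The median absolute r was 0.66 for the members and 0.38 for all tested genes. All 31 kept their sign when the 2 libraries farthest from the median index were left out. Scn4b, a sodium channel beta subunit linked to resurgent current and abundant in striatal neurons, was the most variable member, from 132 to 3147 reads and with coefficients of variation of 36.5% to 61.3% within arms. Its deviation fell with the index (r = -0.74, rho = -0.70, permutation p = 1e-05 for both, the smallest these permutations can give, adjusted p = 2.18e-05; r = -0.69 without the 2 libraries). Hcn4, a pacemaker subunit sparse in cortex, rose with it (r = 0.91, rho = 0.94, permutation p = 1e-05 for both, adjusted p = 2.18e-05; r = 0.91 without the 2 libraries). Cacna1i (r = 0.27, rho = 0.28, permutation p = 0.0582 and 0.0503, adjusted 0.0673 and 0.0581) and Unc80 (r = 0.06, rho = 0.05, permutation p = 0.691 and 0.758, adjusted 0.731 and 0.779) did not pass, and neither did Cacna1e, Cacnb4 or Cacna2d2. An index of striatum markers, built in the same way, ran from 0.575 to 3.30 over the libraries. Its relation with Scn4b was not tested.

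**Figure D5:**
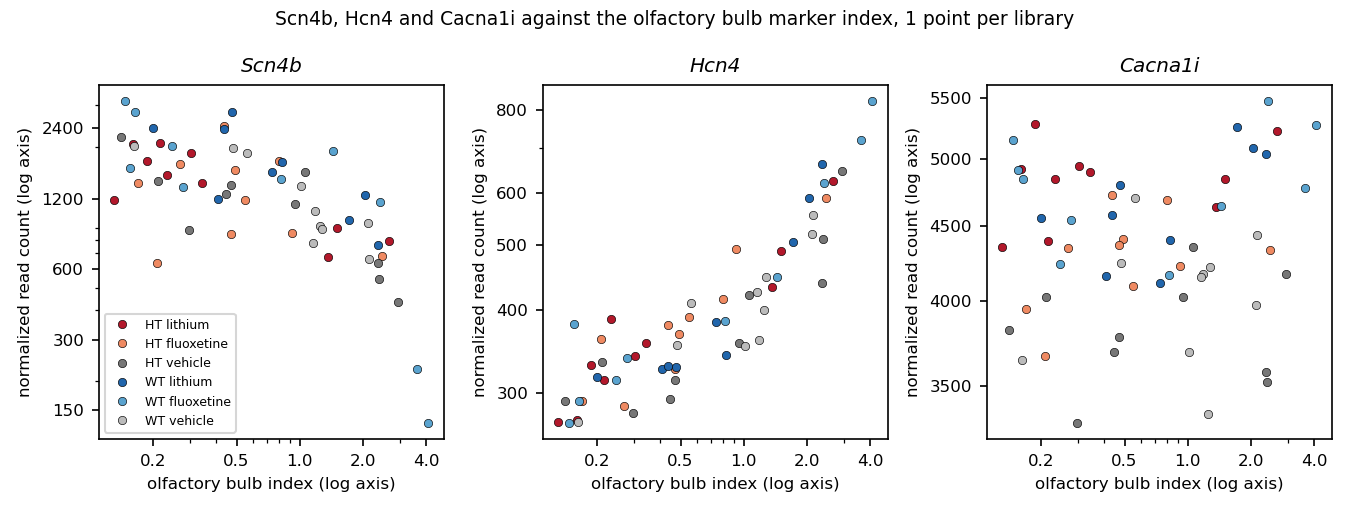
Normalized read counts of Scn4b, Hcn4 and Cacna1i against the olfactory bulb marker index, with 1 point per library, colours for arms and log scales on both axes. Scn4b falls and Hcn4 rises with the index, which runs from 0.131 to 4.10, while the Cacna1i points of HT lithium lie above those of HT vehicle along its range.

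The index moved with the groups: all 8 bulb markers were lower in HT lithium than in HT vehicle (median change -0.95) and none passed. The same held in WT lithium (-0.29) and WT fluoxetine (-0.68) against WT vehicle. It also held in HT fluoxetine against HT vehicle (-0.54) and in HT vehicle against WT vehicle (-0.42), where no member passed. In HT lithium the change of the bulb markers differed between the sexes (females minus males, median 3.26, from 1.56 to 5.66). All 8 had an unadjusted p under 0.05 by limma, against 17.1% of all genes, and none passed. Among the genes called in HT lithium, the relation with the index was inverse for Cacna1a, Cacna1b, Cacnb1, Cacnb3, Hcn2, Nalcn and Fgf14, strongest for Cacna1b (r = -0.85, rho = -0.82, permutation p = 1e-05 for both, adjusted p = 2.18e-05; r = -0.83 without the 2 libraries). It was direct for Cacna1g, Cacna1h, Unc79 and Fgf12, strongest for Cacna1h (r = 0.60, rho = 0.57, permutation p = 4e-05 and 0.0001; r = 0.53 without the 2 libraries). With the index as a covariate 17 members passed in HT lithium, against 26.2% of all genes, with all 14 of the calls above among them. Cacna1a was then at 0.32 and Cacna1b at 0.20, each closer to 0, while Cacna1i (0.36), Cacna1g (0.26) and Cacna1h (0.29) were farther from it and Nalcn stood at -0.25. The covariate gave 12 members in WT lithium and 16 in WT fluoxetine, again with each of their 7 calls included. The share of all genes called with the covariate is not given here for these comparisons. Their counts are therefore not a result about the members. Myelin markers were lower in WT fluoxetine than in WT vehicle, with a median change of -0.63 and 3 of 6 passing. In HT lithium 2 of 4 microglial, 1 of 6 inhibitory neuron and 1 of 5 astrocyte markers rose, and of 5 excitatory neuron markers none passed (median change 0.14). Their part in the channel values was not tested.

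Some members of one channel class varied together within groups. Unc79 and Unc80 correlated with r = 0.57 and rho = 0.55 (permutation p = 6e-05 and 0.0001, adjusted p = 0.000101 and 0.000168; r = 0.58 without 2 libraries). Unc80 and Nalcn gave r = 0.36 and rho = 0.30 (permutation p = 0.0101 and 0.0265, adjusted p = 0.0128 and 0.032; r = 0.34 without 2 libraries), and Unc79 and Nalcn r = -0.03 and rho = -0.10 (permutation p = 0.833 and 0.5, adjusted p = 0.856 and 0.528; r = -0.04 without 2 libraries). Cacna1g and Cacna1h had r = 0.79 and rho = 0.73 (permutation p = 1e-05, adjusted p = 2.18e-05, r = 0.75 without 2 libraries), and both relate directly to the bulb index. Cacna1i, whose relation with the index did not pass, gave r = 0.67 and rho = 0.70 with Cacna1g (permutation p = 1e-05, adjusted p = 2.18e-05, r = 0.63 without 2 libraries). With Cacna1h it gave r = 0.43 and rho = 0.41 (permutation p = 0.0021 and 0.00429, adjusted p = 0.00311 and 0.00588, r = 0.40 without 2 libraries).

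Other genes that work with these channels were followed in 2 lists. Of 7 genes of the axon initial segment, where sodium channels are anchored, 5 rose in HT lithium, 2 in WT lithium and 1 in WT fluoxetine, with median changes of 0.25, 0.17 and 0.10; over all genes 10.9%, 7.66% and 3.54% rose. Ank3, which encodes the anchor ankyrin-G, had 10132, 11437 and 14357 reads in HT lithium against 7786, 9539 and 12168 in HT vehicle (0.27 ± 0.06, adjusted p = 0.00147, limma). It rose in all 3 comparisons, by 0.23 ± 0.07 in WT lithium (adjusted p = 0.0129, limma) and by 0.26 ± 0.06 in WT fluoxetine (adjusted p = 0.00815, limma). Sptbn4, the spectrin of the initial segment, had 5956, 7158 and 10289 reads in HT lithium against 4416, 5526 and 6147 in HT vehicle (0.39 ± 0.08, adjusted p = 0.00024, limma), with little overlap.

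Among 11 tested channel partners, 2 rose and 2 fell in HT lithium (median change 0.07), and 1 rose and 2 fell in WT lithium (-0.12). These counts compare with 20.3% and 12.8% of all genes called in either direction. Fam155a, an auxiliary subunit of the Nalcn complex, fell in both. It had 2086, 2411 and 2592 reads in HT lithium against 2272, 2703 and 2917 in HT vehicle (-0.16 ± 0.04, adjusted p = 0.00299, limma). In WT lithium it had 2152, 2444 and 2696 reads against 2546, 2799 and 3019 in WT vehicle (-0.18 ± 0.04, adjusted p = 0.00291, limma). Fam155a thus moved opposite to Unc79 and Unc80 in both genotypes, and the same way as Nalcn in HT mice. Calm2, 1 of 3 genes for the calcium sensor calmodulin, fell by 0.23 ± 0.06 on the log2 scale in HT lithium and by 0.26 ± 0.06 in WT lithium (adjusted p = 0.00327 and 0.0026, limma).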

How the data were processed

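Libraries were made with a stranded poly(A) kit, per the labels' protocols. The submitters' processing notes name Salmon 0.11.2, DESeq2 1.19.11, R 3.6.0 and the GRCm38 build; how strand was set is not given in the sources used here. The deposited signal is a normalized count, each gene's count divided by a size factor of its library. Values divided by the smallest step of their library were whole within 0.001 for 100.0% of values, which recovered reads and depth; this leaves 0 columns unused.

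Log2 of the normalized count plus 1 was fitted with limma 3.58.1 (R 4.3.3; empirical Bayes with trend, robust) on genes with a mean of at least 10, over 12 groups of genotype, drug and sex and 15 comparisons, all two-sided. All members are named, those past an adjusted p of 0.05 with full values up to 12 per comparison. Members and lists were chosen with earlier results of these data known. Some planned list genes are not reported here. Symbols and lengths came from GENCODE vM21; 18077 of 18088 IDs matched. Alternatives were edgeR 4.0.16 and DESeq2 1.42.0 on recovered reads, pseudocounts of 0.5 and 5, quantile normalization, no filter, only the groups compared, replicate block, removal of GC or length trends (loess, span 0.5), the bulb index as covariate, 2 surrogate variables (sva 3.50.0), leaving out the 5 libraries apart, each sex alone, and each library left out. The fits were tested on simulated counts.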

Additional observations from a re-analysis of the deposited data

Results flagged for a closer look

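In 186 sets of values (31 genes in 6 arms), 10 had a highest or lowest library farther from its neighbours than Dixon's limit allows; chance alone gives this in about 1 of 20 sets. HT fluoxetine male 5, with a bulb index of 2.45, gave 4 of the 10. It was highest for Scn3a at 2263 reads (the others 1576 to 1939), for Cacna1c at 4246 reads (2938 to 3459) and for Cacna1d at 2868 reads (2202 to 2460), and lowest for Cacnb1 at 3564 reads (4291 to 5122). HT lithium female 5, with 2.70% mitochondrial reads, was lowest for Scn3b at 2672 reads (3434 to 3950) and for Cacnb4 at 5047 reads (7494 to 9658). HT lithium female 1 was highest for Cacna1e at 9691 reads (7585 to 8634). WT fluoxetine female 4, with the highest bulb index, was lowest for Cacnb2 at 1012 reads (1156 to 1304). HT vehicle male 3 was highest for Cacnb4 at 11047 reads (7534 to 9094). WT vehicle female 3 was lowest for Unc79 at 1812 reads (2079 to 2314); it lowers the vehicle group of both drug comparisons in WT mice.

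The change with fluoxetine in WT mice differed between the sexes for Cacna1h (0.52), Cacna1i (0.37) and Cacna2d1 (-0.45, log2 scale, females minus males), by the interaction term of limma (adjusted p = 0.0285, 0.0181 and 0.0415). These 3 are 9.68% of the 31 members, near the 8.66% of all genes called, and no member passed without WT fluoxetine female 2, with the GC trend removed, or with only the groups compared in the model.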

How the results depend on the processing

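Under all 17 alternatives run for them, Cacna1i stayed past the threshold with lithium in HT mice and Unc79 and Unc80 with lithium in WT mice, each with a positive change. Counts of members called moved by over 1.5 times as follows, and the causes were not tested. The share of all genes called is not given for every setting. The counts therefore show only how stable the calls were. In HT lithium 14 became 7 with the GC trend removed, 7 with GC trend and replicate block together, and 5 in females alone. In WT lithium 7 became 2 with the length trend removed, 3 with length trend and replicate block, 12 with the bulb index, 15 with 2 surrogate variables, 3 in females and 2 in males alone. In WT fluoxetine 7 became 3 with only the groups compared, 0 with the length trend removed, 1 with length trend and replicate block, 16 with the bulb index, 16 with 2 surrogate variables and 2 in males alone. For sex by fluoxetine in WT mice 3 became 5 with quantile normalization, 0 with only the groups compared, 0 with the GC trend removed, also with the replicate block, 5 with the length trend removed, also with the block, 9 with the bulb index, 11 with 2 surrogate variables and 7 with DESeq2. With 2 surrogate variables 0 became 3 in HT fluoxetine and 2 each in HT against WT fluoxetine, HT against WT lithium and sex by genotype under vehicle. Single libraries left out gave 12 to 15 calls in HT lithium, 5 to 8 in WT lithium, 4 to 8 in WT fluoxetine, 0 to 1 in HT against WT fluoxetine (1 without WT fluoxetine female 5), 0 to 12 in sex by fluoxetine in WT mice, and 0 elsewhere. Among members called with or without the setting, direction turned for Hcn4 in HT lithium with the bulb index (0.18, adjusted p = 0.0492, limma; -0.02 without it) and for Cacna1h in WT fluoxetine males alone (-0.0088). Counted over all members, called or not, changes of sign were more frequent. They numbered at most 7 under any setting in HT lithium (6 with the bulb index, Hcn4 included), 10 in WT lithium and, for WT fluoxetine, 16 in males alone (Cacna1h included). Quantile normalization and removal of the length trend each ended the call of Unc80 in HT lithium. Same-numbered libraries did not deviate together (median r -0.0086 over 319 pairs, 2.94e-05 over differently numbered ones). The numbers are thus not shown to pair mice, but a pairing weaker than the spread between libraries could be missed. The replicate block left 14, 7, 0 and 7 calls in the drug comparisons and 4 in sex by fluoxetine in WT mice. The order of levels per kilobase had a Spearman rho of 0.94 with that per kilobase of the longest coding transcript, with 4 of the 5 highest genes shared. Within arms the coefficient of variation reached 61.3% for Scn4b and 42.2% for Hcn4, against 2.3% at the lowest for Unc80, so that changes of the size called elsewhere were not detectable for Scn4b. Opposite-strand genes overlap Scn1a, Cacna1c, Cacna1d, Cacnb2 and Cacnb4, and how strand was counted is not stated. Same-strand genes of low mean normalized count overlap Fgf14 (Gm49069, 11.3 reads) and Cacnb2 (Gm37891, 15.4 reads).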
